A study of Mus musculus with 5 samples.

Results

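The Notch pathway genes described here are the receptors Notch1, Notch2 and Notch4, the ligands Dll4, Jag1 and Jag2, the DNA-binding effector Rbpj and the target genes Hey1, Hey2 and Hes1. They were taken by symbol from the deposited count and TPM tables. All 10 were found once each, among 49315 genes, and all 10 were among the 18727 genes that passed the filter on low counts. Poly(A)-selected RNA of lung endothelial cells was sequenced after the mice had been infused with angiotensin II, a hormone that constricts vessels, over 28 days. The labels name 2 libraries TET2KO, for a knockout specific to endothelium of TET2, a dioxygenase that oxidises 5-methylcytosine, and 3 libraries WT, for wild type. Both groups were infused, so neither shows the genes without angiotensin II. The sources used here do not give the Cre driver, the deleted exons, the age of the mice, the isolation method or whether animals were pooled. Because nothing says that the libraries came from separate animals, the p-values describe library-to-library spread, which may be technical.

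Notch signalling passes between touching cells. A Delta-like or Jagged ligand on one cell binds a Notch receptor on its neighbour, proteases then release the receptor's intracellular part, and this part joins RBPJ on DNA and switches on repressor genes of the Hey and Hes families. In vessels the pathway is known for arterial identity, for restraining sprouting from the tip of a new vessel and for the contact between endothelium and mural cells, and DLL4 and NOTCH4 are mostly endothelial.

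Tet2 itself was not lower in the libraries labelled TET2KO, at 4608 and 5188 counts, against 4018, 5142 and 4130 counts in those labelled WT (log2 fold change 0.022, SE 0.19, edgeR adjusted p = 0.987). In TPM it stood at 30.1 and 35.1 in TET2KO, above all WT libraries at 29.2, 27.1 and 26.4, while the counts overlapped. The deleted exons are not given and other cells also express Tet2, so whole-gene values cannot check the labels. Why Tet2 was not lower was not tested. TET2KO and WT below are the names the labels give. Total counts were between 27346804 and 35440257 per library. Cdh5 and Pecam1, which define endothelium, stood at 1091 and 1010 TPM and at 574 and 585 TPM in TET2KO replicates 1 and 2. In WT replicates 1, 2 and 3 they stood at 523, 303 and 770 TPM and at 363, 176 and 440 TPM. The summed counts of 12 endothelial markers were 0.502% to 0.511% of the TET2KO libraries, against 0.177% to 0.372% of the WT libraries, and none of the 12 was at 0 in any library. The isolates also held transcripts of other cells. The 6 pan-leukocyte markers summed to 0.358% to 0.378% in TET2KO and 0.431% to 0.475% in WT. The 8 macrophage and monocyte markers summed to 0.505% and 0.938% in TET2KO, against 0.328% to 3.11% in WT, with the highest value in WT replicate 2. Ptprc, the pan-leukocyte CD45 gene, stood at 240.5 and 232 TPM in TET2KO and at 289, 173 and 259 TPM in WT, and Lyz2, a myeloid lysozyme, at 8206 and 13328 TPM in TET2KO and at 14525, 37909 and 4728 TPM in WT. T cell markers summed to 0.0371% to 0.0419% in TET2KO and 0.0176% to 0.0470% in WT, and B cell markers to 0.215% to 0.346% in TET2KO and 0.0979% to 0.486% in WT. Airway markers summed to 0.0494% to 0.129% in TET2KO and 0.0302% to 0.0478% in WT, and alveolar markers to 0.0580% to 0.0917% in TET2KO and 0.0226% to 0.0776% in WT. Fibroblast markers summed to 0.00985% to 0.0113% in TET2KO and 0.00427% to 0.0120% in WT, and mesothelial markers to 0.00933% to 0.0251% in TET2KO and 0.00564% to 0.0355% in WT. Gene by gene, the median log2 fold change was 1.64 for mesothelial markers (5 of 6 above 0), 1.10 for airway markers (7 of 7), 0.78 for alveolar markers (8 of 8) and 0.60 for fibroblast markers (7 of 8). It was -1.11 for macrophage and monocyte markers (0 of 8 above 0). In counts scaled to library size, both TET2KO libraries exceeded all WT libraries for 5 mesothelial, 2 airway, 3 alveolar and 3 fibroblast markers. They also did so for 3 pericyte and smooth muscle and 12 endothelial markers, where 12.4% of all genes did. Both lay below for 3 pan-leukocyte markers, where 12.4% of all genes did. For macrophage, T cell and B cell markers these counts were 0. The part of these cell types in the results below was not tested. The 9 pericyte and smooth muscle markers summed to 0.00260% to 0.00262% in TET2KO and 0.00164% to 0.00267% in WT.

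The authors' deposited table of fold changes did not follow the labels. For 18019 of its 18019 genes, its log2 fold change was matched within 0.001 by DESeq2 when WT replicate 3 was put with both TET2KO libraries and set over WT replicates 1 and 2. Under the labelled grouping 50 genes matched within 0.001. All comparisons below follow the labels. Without WT replicate 3, edgeR called 0 of 10 members, and 6 had an unadjusted p under 0.05, against 5 with it. Among all genes tested, 1407 of 18430 had an unadjusted p under 0.05 without WT replicate 3, against 1098 of 18727 with it.

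Most of the Notch genes had higher mean levels in the TET2KO libraries, but none passed the test over all genes. Notch1, Jag1, Rbpj, Hey2 and Hes1 changed sign when scaled to endothelial marker counts. The marker sum, relative to library size, was 0.78 higher in TET2KO on the log2 scale. Scaling to it lowers the fold changes of all genes by a similar amount. Without that scaling, fold changes for Hey1, Jag2, Notch4 and Dll4 ranged from 1.77 to 2.11. Rbpj was close to equal in the groups and Notch2 was lower in TET2KO. By edgeR's quasi-likelihood test, with p-values adjusted over the 18727 genes, 0 of 10 members were called, against 0% of all genes. At an unadjusted p under 0.05, 5 members were higher, Hey1, Notch4, Jag2, Dll4 and Jag1, where 5.32% of all genes were higher, and 0 were lower, where 0.539% were lower. Among the alternatives, DESeq2 called 1 member, Hey1 (adjusted p = 0.010), where it called 0.326% of all genes as higher, and limma-voom called 0. Of the 10 members, 9 had a log2 fold change above 0, where 41.6% of all genes did, with a median of 0.66 over the members and -0.08 over all genes tested. In TMM-scaled CPM (counts scaled to library size), the lower TET2KO library exceeded the highest WT library for 6 members, and for Notch2 the order was the reverse. For all genes these shares were 12.4% above and 12.4% below. Of the 12 endothelial markers described above, 12 had both TET2KO libraries above all WT libraries. By edgeR 8 of these 12 were higher at an unadjusted p under 0.05.

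**Figure D1:**
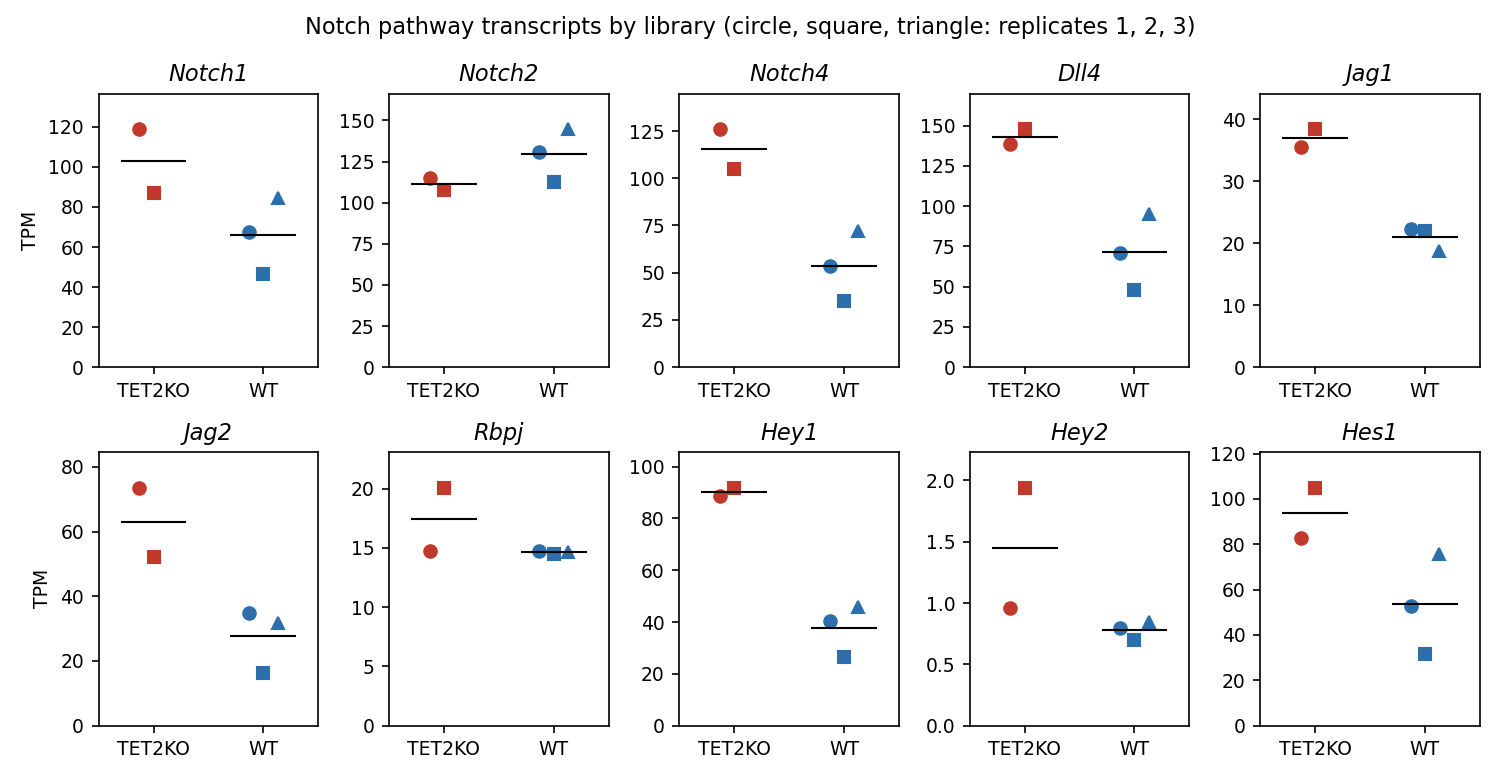
TPM of the 10 Notch genes in each library, TET2KO on the left and WT on the right of each panel, with a line at each group's mean. Dll4, Notch4, Hey1, Jag1 and Jag2 separate the groups in every library. Notch1, Hes1 and Hey2 also do so, by smaller margins, while Notch2 and Rbpj overlap on this scale. In TMM-scaled CPM, Notch1 and Hey2 overlap between the groups and Notch2 does not.

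Among the 3 ligands, Dll4 had the highest TPM in each library. Dll4, the Delta-like ligand of arterial and capillary endothelium, stood at 139 and 148 TPM in the TET2KO libraries, against 71.0, 47.8 and 95.2 TPM in the WT libraries. The groups did not overlap, and the highest WT library was replicate 3. Dll4 had a log2 fold change of 0.82 (SE 0.22, edgeR adjusted p = 0.740).

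Jag2, a second Jagged ligand of arterial endothelium, stood at 73.6 and 52.1 TPM in TET2KO and at 35.0, 16.3 and 31.8 TPM in WT. WT replicate 2 was the low library and TET2KO replicate 1 the high one. On the log2 scale Jag2 had a fold change of 1.02 (SE 0.27, edgeR adjusted p = 0.740). Jag1, the Jagged ligand through which endothelium signals to smooth muscle, stood at 35.6 and 38.4 TPM in TET2KO and at 22.2, 22.0 and 18.7 TPM in WT. Here WT replicate 3 was the lowest library, unlike for Dll4, and the spread within each group was narrow on TPM. The WT spread was wider in TMM-scaled CPM, with 56.8 and 61.4 CPM in TET2KO against 37.1, 48.7 and 32.0 CPM in WT. Jag1 had a log2 fold change of 0.59 (SE 0.22, edgeR adjusted p = 0.821).

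The balance of Dll4 to Jag1, which compete for Notch receptors in sprouting vessels, was uneven within WT. The TPM ratio was 3.90 and 3.85 in TET2KO and 3.19, 2.17 and 5.10 in WT. The TET2KO ratios lay inside the WT range. The log2 ratios differed by 0.24, with p = 0.8 in an exact two-sided permutation test over the 5 libraries (0.8 after adjustment over the 3 ratios tested), where the smallest p the design allows is 0.2. Without WT replicate 2 the difference was -0.059.

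The receptors differed in direction. Notch4, a receptor found mainly in endothelium, stood at 126 and 105 TPM in TET2KO and at 53.4, 34.9 and 72.2 TPM in WT. The groups did not overlap, with WT replicate 3 again the highest of its group. Its log2 fold change was 0.93 (SE 0.24, edgeR adjusted p = 0.740).

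Notch1, the main receptor of arterial and sprouting endothelium and also of T cells, stood at 119 and 87.1 TPM in TET2KO and at 67.5, 46.5 and 84.5 TPM in WT. TET2KO replicate 2 lay close to WT replicate 3, and in TMM-scaled CPM the 2 crossed: 463 and 340 CPM in TET2KO against 275, 251 and 354 CPM in WT. Notch1 had a log2 fold change of 0.45 (SE 0.24, edgeR adjusted p = 0.864), and it was 0.21 without TET2KO replicate 1.

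Notch2, a receptor that B cells and myeloid cells also use, stood at 115 and 108 TPM in TET2KO and at 131, 113 and 145 TPM in WT. On TPM the groups overlapped at WT replicate 2, while in TMM-scaled CPM they did not, with 340 and 318 CPM in TET2KO against 404, 462 and 459 CPM in WT. Notch2 had a log2 fold change of -0.42 (SE 0.17, edgeR adjusted p = 0.862). The pan-leukocyte sum given above was lower in TET2KO as well, while the macrophage and B cell sums overlapped between the groups, and their part in this difference was not tested.

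As shares of the summed receptor TPM, Notch4 made up 35.0% in both TET2KO libraries, against 21.2%, 18.0% and 23.9% in WT. Notch2 made up 32.0% and 35.9% in TET2KO and 52.0%, 58.1% and 48.0% in WT, and Notch1 33.0% and 29.0% in TET2KO and 26.8%, 23.9% and 28.0% in WT. The WT libraries were thus each led by Notch2, and the TET2KO libraries were split in near-equal parts. A share within a library does not depend on scaling between libraries, though it does depend on which cells the library holds. The Notch4 share averaged 35.0 ± 0.0368% in TET2KO (SD, n = 2) and 21.0 ± 2.99% in WT (SD, n = 3). This difference of 14.0 percentage points had p = 0.2 in the exact two-sided permutation test, the smallest p that 2 against 3 libraries can give (0.3 after adjustment over the 3 ratios tested). It ranged from 12.4 to 15.4 percentage points as each library was left out. Macrophage and leukocyte content differed between the libraries in the values given above, and its part in the shares was not tested.

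**Figure D2:**
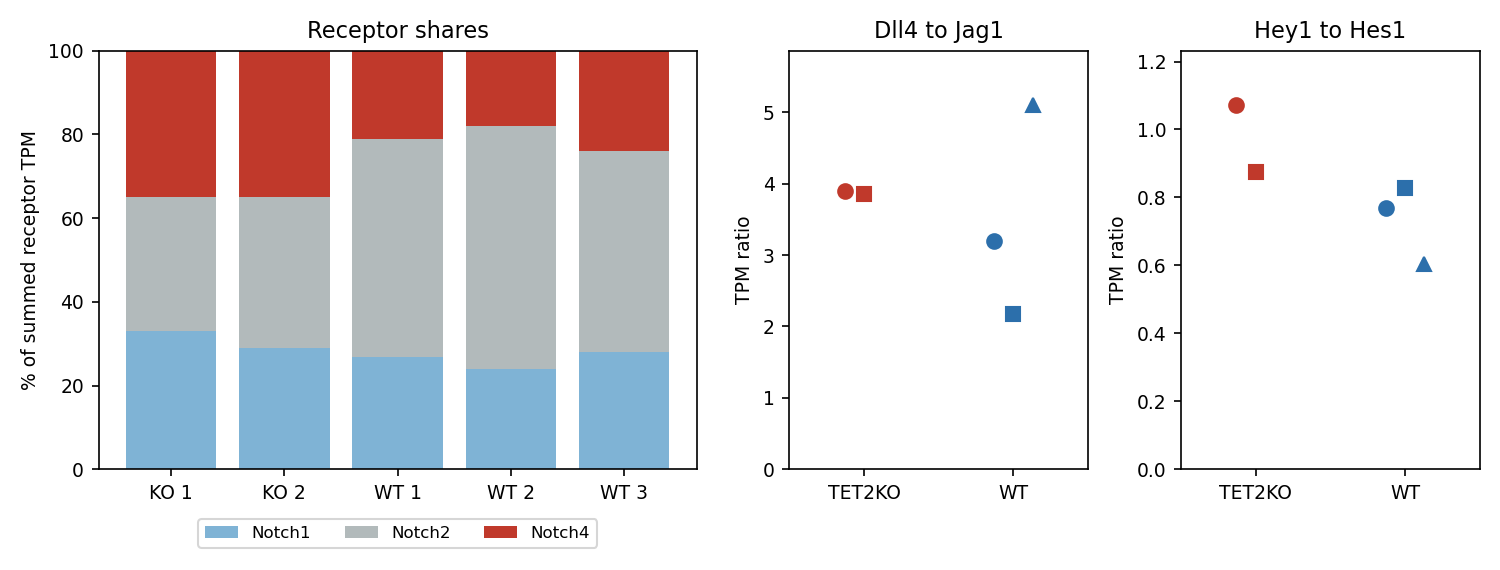
Left, shares of Notch1, Notch2 and Notch4 in their summed TPM in each library (KO is TET2KO). Middle and right, the TPM ratios of Dll4 to Jag1 and of Hey1 to Hes1 in each library, with circle, square and triangle for replicates 1, 2 and 3. The Notch4 share is 35.0% in both TET2KO libraries and at most 23.9% in WT, while the Dll4 to Jag1 ratios overlap.

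Rbpj, the DNA-binding partner of every Notch receptor, had the fold change nearest to 0 of the 10 genes. It stood at 14.8 and 20.1 TPM in TET2KO and at 14.8, 14.5 and 14.7 TPM in WT. On TPM only TET2KO replicate 2 left the narrow WT range. That range was wider in TMM-scaled CPM, with 51.5 and 70.2 CPM in TET2KO against 53.9, 70.0 and 55.1 CPM in WT. Rbpj had a log2 fold change of 0.029 (SE 0.21, edgeR adjusted p = 0.983). Its sign turned under endothelial scaling, under the replicate block and without WT replicate 1 or TET2KO replicate 2.

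Hey1 had the smallest p of the 10 genes and ranked 14 of 18727 by p. Hey1, a basic helix-loop-helix repressor induced by Notch in arteries and also by BMP signalling, stood at 88.7 and 91.9 TPM in TET2KO, against 40.5, 26.3 and 45.9 TPM in WT. The TET2KO libraries were almost equal to each other and well above the highest WT library. In TMM-scaled CPM the means were 80.8 ± 2.07 in TET2KO (SD, n = 2) and 38.2 ± 5.74 in WT (SD, n = 3). Hey1 had a log2 fold change of 1.08 (SE 0.18, edgeR adjusted p = 0.740), and with each library left out it lay between 1.01 and 1.23.

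Hes1, a repressor that many cell types express and that Notch among other signals induces, stood at 82.8 and 105 TPM in TET2KO and at 52.7, 31.8 and 75.9 TPM in WT. WT replicate 3 came close to TET2KO replicate 1. Hes1 had a log2 fold change of 0.64 (SE 0.29, edgeR adjusted p = 0.864), and it ranged from 0.46 without TET2KO replicate 2 to 0.96 without WT replicate 3. The TPM ratio of Hey1 to Hes1 was 1.07 and 0.875 in TET2KO and 0.768, 0.829 and 0.605 in WT. The log2 ratios differed by 0.41, with p = 0.2 in the exact two-sided permutation test, again the smallest that the design allows (0.3 after adjustment). This difference was 0.27 without TET2KO replicate 1 and 0.56 without TET2KO replicate 2.

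Hey2, which marks arterial endothelium and heart muscle, was scarce. It had 40 and 78 counts in the TET2KO libraries and 30, 36 and 36 counts in the WT libraries, or 0.961 and 1.94 TPM against 0.800, 0.698 and 0.846 TPM. In TMM-scaled CPM the groups overlapped, with 1.21 and 2.44 CPM in TET2KO against 1.05, 1.22 and 1.14 CPM in WT. Exact Poisson 95% intervals, which cover counting error only, ran from 28.6 to 54.5 counts for TET2KO replicate 1 and from 25.2 to 49.8 for WT replicates 2 and 3. Only TET2KO replicate 2, with an interval from 61.7 to 97.3 counts, lay outside the WT intervals. Hey2 had a log2 fold change of 0.68 (SE 0.40, edgeR adjusted p = 0.864), and it was 0.09 without TET2KO replicate 2.

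In TPM, a scale per length that allows genes to be compared, the order of the levels differed between the groups. In TET2KO it ran Dll4, Notch4, Notch2, Notch1, Hes1, Hey1, Jag2, Jag1, Rbpj and Hey2. The ranges of neighbours overlapped from Notch4 to Hey1, while Dll4 stood clear above Notch4 and each step from Hey1 downwards was clear as well. In WT the order ran Notch2, Dll4, Notch1, Notch4, Hes1, Hey1, Jag2, Jag1, Rbpj and Hey2. There Notch2 stood clear at the top, and all neighbours from Dll4 down to Jag1 overlapped.

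The courses of the members around the mean of the 5 libraries were compared pair by pair. Of the 45 pairs of members, Notch4 and Dll4 were closest, with a root mean square difference of 0.12 in centred log2 CPM over the 5 libraries, followed by Dll4 and Hes1 (0.14), Dll4 and Hey1 (0.14) and Notch4 and Hey1 (0.15). Notch4 and Jag2 (0.21) and Jag2 and Hey1 (0.23) came next, ahead of Notch4 and Hes1 (0.24). Then followed Notch1 and Notch4 (0.26), Notch1 and Dll4 (0.26) and Hey1 and Hes1 (0.27). Notch2 and Jag2 were farthest apart (0.77). Among 10150 other genes with a mean log2 CPM of at least 3, those nearest to Hey1 were Jcad, an endothelial junction gene (0.041), the semaphorin Sema6d (0.067) and the plexin Plxna4 (0.077). The nearest to Dll4 were the Hippo pathway coactivator Yap1, Fnbp1l and the peroxidasin gene Pxdn (0.041, 0.046 and 0.047). The nearest to Notch4 were Zfp366, Sh3tc2 and Smad6, an inhibitor of BMP signalling (0.049, 0.055 and 0.056). These distances share libraries, depth and cell content and carry no test.

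The members were then read against endothelial content, since these are bulk isolates in which fewer cells of a type and less RNA per cell cannot be told apart. Set against the summed counts of the 12 endothelial markers, which hold no Notch gene, Dll4, Notch4, Hes1, Jag1, Jag2 and Hey2 overlapped between the groups. Per 1000 such counts, Dll4 had 30.3 and 33.1 in TET2KO and 28.6, 33.0 and 29.4 in WT. Notch4 had 57.6 and 49.2 in TET2KO and 45.0, 50.5 and 46.7 in WT. Hes1 had 9.58 and 12.4 in TET2KO and 11.2, 11.6 and 12.4 in WT. For each of Dll4, Notch4 and Hes1 at least 1 WT library lay between the TET2KO libraries. With the endothelial sums as library sizes in edgeR, the log2 fold changes were 0.063 (SE 0.28) for Dll4, 0.17 (SE 0.28) for Notch4 and 0.24 (SE 0.32) for Jag2.

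Hey1 was higher in TET2KO on this scale too, with 16.4 and 17.4 per 1000 endothelial counts in TET2KO and 13.8, 15.4 and 12.0 in WT. It was the 1 member of 10 whose TET2KO libraries both lay above all WT libraries, as 0.892% of all genes did on this scale. Its log2 fold change was 0.30 (SE 0.29) when edgeR took the endothelial sums as library sizes, with an adjusted p of 0.421.

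Notch2 had 70.5 and 67.4 per 1000 endothelial counts in TET2KO and 147, 218 and 125 in WT. Rbpj had 10.7 and 14.9 in TET2KO and 19.7, 33.0 and 15.0 in WT, and Notch1 96.0 and 72.0 in TET2KO and 100.3, 119 and 96.5 in WT. These were the 3 members of 10 whose TET2KO libraries both lay below all WT libraries, as 56.8% of all genes did on this scale. The endothelial scaling moved the median log2 fold change of all genes to -0.88 and put 32.3% of all genes lower at an unadjusted p under 0.05, Notch2 (log2 fold change -1.25, SE 0.36) among them. By edgeR with this scaling 0 of 10 members were called, where 0% of all genes were called lower. With a WT library also left out, Notch2 was called lower without WT replicate 2 or 3, where 7.07% and 41.2% of all genes were called.

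**Figure D3:**
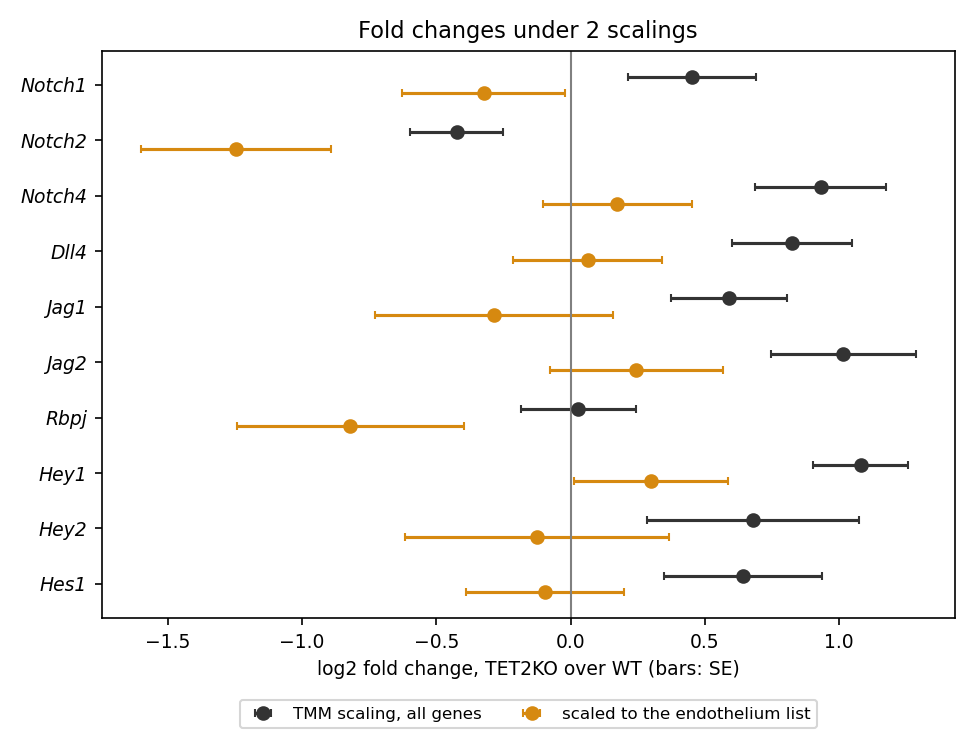
Log2 fold changes of TET2KO over WT with SE bars for the 10 Notch genes, under TMM scaling over all genes and with the endothelial marker sums as library sizes. Hey1 is 1.08 under TMM and 0.30 under endothelial scaling, and Notch1, Jag1, Rbpj, Hey2 and Hes1 change sign. All 10 genes are lower under endothelial scaling.

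The rest of the Notch machinery had fold changes spread around that of all genes. Of 67 further pathway genes, 63 were tested, 0 were called by edgeR, and 3 were higher and 1 lower at an unadjusted p under 0.05, where 5.32% and 0.539% of all genes were. Their median log2 fold change was -0.12, next to -0.08 for all genes, with 24 genes above 0 and 39 below. The groups did not overlap for 8 of the 63 with TET2KO higher and for 12 with TET2KO lower, next to 12.4% of all genes in each direction.

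The other ligands and receptors were led by Dll1, a Delta-like ligand that several tissues share, at 74.0 and 45.2 TPM in TET2KO and 39.6, 23.5 and 63.4 TPM in WT, with overlapping groups. Notch3, the receptor of mural cells, was scarce, at 1.10 and 0.994 TPM in TET2KO and 0.777, 0.609 and 0.752 TPM in WT. Dlk2, a non-canonical ligand gene, had at most 11 counts in a library.

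The enzymes that prepare and cut the receptors were spread around 0, with a median of -0.12 over 15 genes. Adam10, the protease of the first cut after ligand binding, stood at 117 and 116 TPM in TET2KO and 123, 134 and 106 TPM in WT. The gamma-secretase genes Psen2 and Psenen had log2 fold changes of -0.50 (SE 0.28) and -0.44 (SE 0.17). The Fringe glycosyltransferases Lfng and Mfng, which tune the preference for Delta over Jagged ligands, had 0.098 (SE 0.17) and 0.25 (SE 0.31). Eogt, which adds O-linked GlcNAc to Notch repeats, was the exception in size, at 47.5 and 51.7 TPM in TET2KO and 25.4, 19.15 and 34.9 TPM in WT, a log2 fold change of 0.72 (SE 0.21, edgeR adjusted p = 0.740).

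The ubiquitin ligase and endocytosis list of 16 genes had 8 genes above 0 and 8 below. Mib1, the ligase that activates ligands, had a log2 fold change of -0.068 (SE 0.24). Epn2, an epsin of ligand endocytosis, stood at 35.7 and 39.5 TPM in TET2KO and 20.3, 15.1 and 27.6 TPM in WT, a log2 fold change of 0.65 (SE 0.21, edgeR adjusted p = 0.765). Numb, an inhibitor of Notch receptors, had 0.37 (SE 0.15), and Dtx3l, of the Deltex family, 0.22 (SE 0.14).

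Of 19 nuclear cofactors, 15 had a log2 fold change below 0, with a median of -0.14. Ep300, an acetyltransferase of the activation complex, had -0.32 (SE 0.16) and Maml1, which bridges the receptor fragment and RBPJ, -0.25 (SE 0.16). Rbpjl, a relative of Rbpj, had 0.69 (SE 0.37) at 2.89 and 3.31 TPM in TET2KO and 2.59, 1.29 and 1.19 TPM in WT.

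Of the 10 other Hes, Hey and feedback genes tested, 4 had a fold change above 0 and 6 below on the log2 scale. Heyl, a Hey family member of mural cells, had 30 and 18 counts in TET2KO and 8, 7 and 13 in WT, a log2 fold change of 1.23 (SE 0.45, edgeR adjusted p = 0.819). Nrarp, a feedback inhibitor that Notch induces, stood at 14.0 and 14.3 TPM in TET2KO and 11.8, 7.17 and 15.0 TPM in WT, with 0.15 (SE 0.26). Hes5 and Hes2 had at most 18 counts in any library, with -0.98 (SE 0.42) and -0.82 (SE 0.62).

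Of 20 vascular genes linked to Notch, 17 had a log2 fold change above 0, with a median of 0.69 next to 0.74 for the 12 endothelial markers. By edgeR 0 were called, 8 were higher at an unadjusted p under 0.05 (5.32% of all genes), and 14 had no overlap, with TET2KO higher (12.4% of all genes). Under endothelial scaling the median of the 20 was -0.08.

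Among these, Gja4, the arterial connexin 37, stood at 93.4 and 104 TPM in TET2KO and 31.6, 28.1 and 59.4 TPM in WT, a log2 fold change of 1.13 (SE 0.31, edgeR adjusted p = 0.740). Sox17, a SoxF factor of arteries, stood at 52.3 and 53.3 TPM in TET2KO and 21.5, 17.5 and 34.6 TPM in WT, with 0.92 (SE 0.25), and Sox18 had 1.04 (SE 0.20). Efnb2, the arterial ephrin-B2, had 0.63 (SE 0.31), and Gja5, the arterial connexin 40, 0.36 (SE 0.36), with overlapping groups. Nr2f2, which represses Notch genes in veins, stood at 5.35 and 8.68 TPM in TET2KO and 3.21, 3.87 and 3.29 TPM in WT, with 0.78 (SE 0.32). The 3 genes of this list below 0, named after their values were seen, were Nrp2 (-1.01, SE 0.92), Bmx (-0.51, SE 0.59) and the chemokine receptor gene Cxcr4 (-0.36, SE 0.26).

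**Figure D4:**
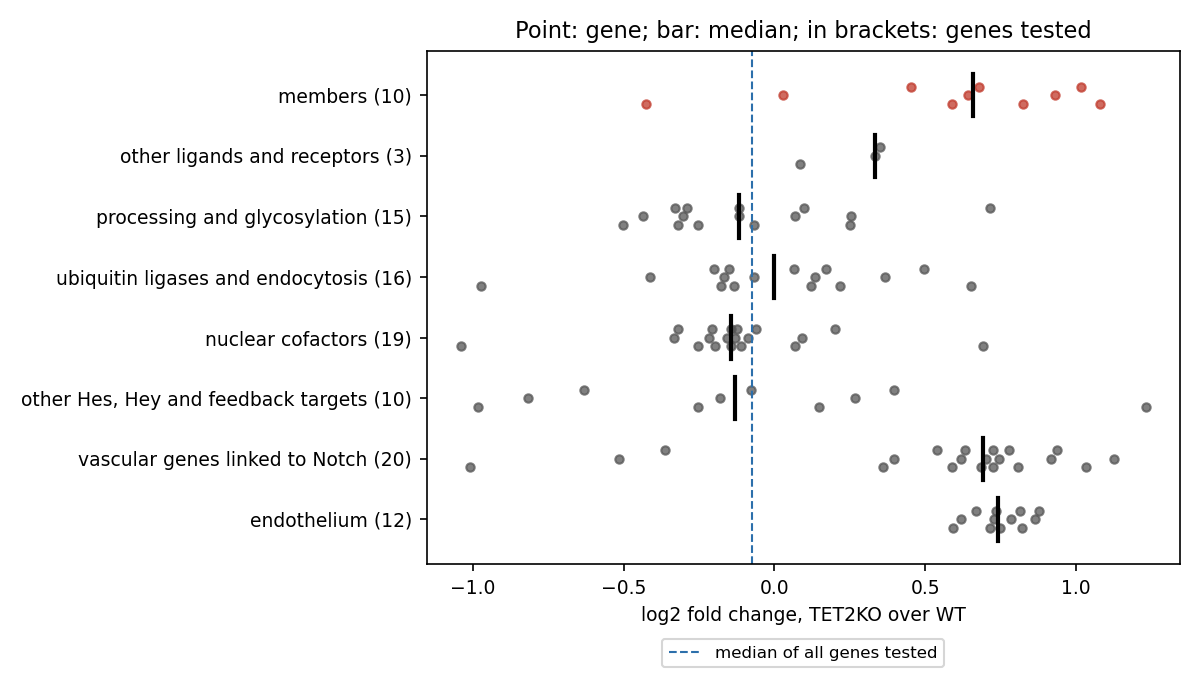
Log2 fold changes of TET2KO over WT for the 10 Notch genes, the further pathway lists, the vascular genes linked to Notch and the endothelial markers, one point per gene tested, with list medians as bars and the median of all genes as a dashed line. The medians are 0.66 for the members, 0.69 for vascular genes and 0.74 for endothelial markers, and between -0.14 and 0.33 for the other lists drawn. Not drawn are mesothelial, airway, alveolar and fibroblast markers, with medians of 1.64, 1.10, 0.78 and 0.60. Macrophage and monocyte, pan-leukocyte, B cell, T cell and pericyte and smooth muscle markers, at -1.11, -0.31, -0.28, 0.07 and 0.42, are not drawn either.

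In the authors' deposited table, which set WT replicate 3 with both TET2KO libraries against WT replicates 1 and 2, 3 of the 10 members were higher at an adjusted p under 0.05, where 1.12% of its genes were higher and 1.66% passed in either direction. In the authors' deposited table these were Notch4 (log2 fold change 1.00, adjusted p = 0.038), Dll4 (0.90, 0.041) and Hes1 (0.88, 0.043). Hey1 had 0.98 (adjusted p = 0.10) in the authors' deposited table. WT replicate 3 was the highest WT library for Notch4, Dll4 and Hes1, and also for Hey1, Hey2, Notch1 and Notch2 in TPM. Of the 10, Notch4 was in the authors' deposited table of 217 genes, whose absolute log2 fold changes are above 1. Without WT replicate 3 the labelled comparison by edgeR gave log2 fold changes of 1.18, 1.06, 0.96 and 1.23 for Notch4, Dll4, Hes1 and Hey1, with adjusted p of 0.443, 0.443, 0.465 and 0.443.

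**Figure D5:**
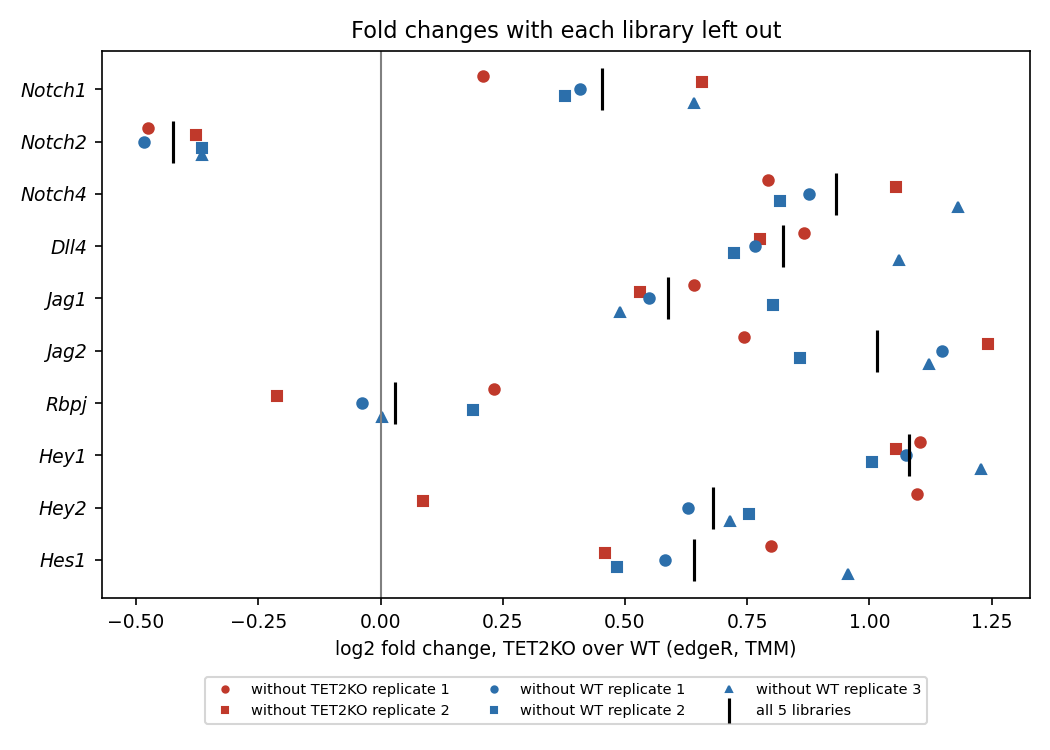
Log2 fold changes of TET2KO over WT by edgeR for each Notch gene with each library left out in turn, with the value from all 5 libraries as a vertical bar. Hey1 stays between 1.01 and 1.23, Notch2 stays below 0, Rbpj lies on both sides of 0, and Hey2 spans the widest range, with 0.09 without TET2KO replicate 2.

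The members lie on several chromosomes of GRCm38 (GENCODE annotation). Hey1 (ENSMUSG00000040289) spans chr3:8663359-8667256 on the minus strand, Dll4 (ENSMUSG00000027314) chr2:119325784-119335962 on the plus strand and Notch4 (ENSMUSG00000015468) chr17:34564268-34588503 on the plus strand. Exons of 3 members overlap those of another gene: Notch1, Notch2 and Dll4. Gm14207, on the strand opposite to Dll4, had 106 and 107 counts in TET2KO and 59, 53 and 52 in WT. No strand setting of the counting is stated, and reads of this pair cannot be told apart without one. Dll4 itself had at least 2069 counts in each library. On the strand opposite to Notch1, 0610009E02Rik and Gm13568 had at most 34 and 12 counts in a library. Gm42820, on the same strand as Notch2, had 175 and 125 counts in TET2KO and 187, 129 and 146 in WT. A strand setting would not tell that pair apart. Notch2 itself had at least 10164 counts in each library.

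TET2 acts on methylated CpG sites and RBPJ binds the core TGGGAA, so the start regions of the members were read for both. RefSeq (GRCm38.p6) gave windows from 250 bases before to 50 after the start for 8 of the 10 members, those without an entry being Hey1 and Hes1. Across 32851 such windows, 25.6% held TGGGAA on either strand and the median number of CpG sites was 7. The core was in the windows of 2 of the 8 members, Hey2 and Rbpj. Windows of the members held between 5 CpG sites (Notch4) and 63 (Jag2), with 17 for Dll4. Dll4 and Notch4 are shown because the closest pair of members differ in CpG number, with each CpG in capitals, and Hey2 because it is the target gene with the core, in capitals at base 248 as TGGGAA and at base 44 as its reverse complement TTCCCA. Each is written 5′ to 3′ on the gene's strand: chr2:119325534-119325833 plus, chr17:34564045-34564344 plus and chr10:30842734-30843033 minus. No methylation and no RBPJ binding were measured here, and the matches are a description of the letters only.
Dll4: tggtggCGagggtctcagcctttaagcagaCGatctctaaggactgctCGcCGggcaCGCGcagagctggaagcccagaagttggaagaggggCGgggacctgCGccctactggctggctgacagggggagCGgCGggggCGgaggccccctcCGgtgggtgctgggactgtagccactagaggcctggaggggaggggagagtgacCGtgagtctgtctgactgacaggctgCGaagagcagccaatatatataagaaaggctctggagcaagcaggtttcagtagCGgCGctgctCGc
Notch4: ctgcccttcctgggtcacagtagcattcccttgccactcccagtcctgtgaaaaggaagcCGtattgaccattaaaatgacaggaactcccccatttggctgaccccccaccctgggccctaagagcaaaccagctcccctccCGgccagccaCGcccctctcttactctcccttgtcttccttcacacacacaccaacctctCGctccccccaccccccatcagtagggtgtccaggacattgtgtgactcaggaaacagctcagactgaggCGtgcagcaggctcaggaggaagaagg
Hey2: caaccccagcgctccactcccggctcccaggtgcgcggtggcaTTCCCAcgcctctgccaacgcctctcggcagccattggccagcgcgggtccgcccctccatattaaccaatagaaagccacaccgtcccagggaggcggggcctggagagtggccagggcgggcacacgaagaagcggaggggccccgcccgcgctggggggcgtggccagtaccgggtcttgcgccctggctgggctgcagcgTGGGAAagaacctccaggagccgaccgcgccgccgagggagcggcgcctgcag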

How the data were processed

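Per the submitters' processing notes, the authors trimmed reads with Trimmomatic 0.36, aligned them with STAR 2.5.2b to GRCm38 and counted them with featureCounts of Subread 1.5.2. They deposited whole-number counts per gene, TPM values and a comparison table from DESeq2 with log2 fold changes, p-values and a size-factor normalized signal, per the file headers. The counts were tested with edgeR 4.0.16 in R 4.3.3 (filterByExpr, TMM, a quasi-likelihood test of genotype with no other term) on the whole table, with Benjamini-Hochberg adjustment over all genes tested and a threshold of 0.05. SE is the log2 fold change over the square root of F. Levels are given in the deposited TPM, which scales by gene length and library total. Ratios within a library were compared by exact permutation in scipy 1.17.1. Alternatives used DESeq2 1.42.0, limma 3.58.1, other scalings and filters, and leaving out each library. The fit was tested on simulated data with less spread and larger changes than here. That test therefore does not cover the members' own spread and fold changes. The 10 members and the lists were chosen with earlier results of these data known, so no list was tested as a set. The named genes were all members, the 3 genes with the smallest p of each list, some set genes of the pathway and, for cell content, Cdh5, Pecam1 and first markers; Ptprc and Lyz2 are printed of these, Tet2 was added as the targeted gene, and the other cell type lists are given as sums. No columns were left unmapped. Depth was similar across libraries, so counting error matters mainly for genes with few counts.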

Additional observations from a re-analysis of the deposited data

How the results depend on the processing

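The count of members called was 0 under every alternative scaling, filter, tool and left-out library except DESeq2, where it was 1, and the counts for further pathway genes and vascular genes were 0 under all of these. The fold changes of Dll4, Jag2, Notch2 and Notch4 kept their direction in these 17 alternatives, and so did Hey1, but endothelial scaling took Dll4 to 0.063, Notch4 to 0.17, Jag2 to 0.24 and Hey1 to 0.30. With the endothelial marker sums as library sizes, log2 fold changes turned to -0.32 (SE 0.30) for Notch1 and -0.28 (SE 0.44) for Jag1. They turned to -0.82 (SE 0.42) for Rbpj, -0.13 (SE 0.49) for Hey2 and -0.094 (SE 0.29) for Hes1. The medians turned to -0.11 for the members and -0.079 for vascular genes. This scaling divides by a marker sum that was higher in TET2KO, by 0.78 on the log2 scale after TMM scaling. It therefore lowers the fold changes of all genes by a similar amount. Rbpj also turned to -0.031 with the replicate block, and lay between -0.21 and 0.23 with each library left out. The pathway median of -0.12 turned to 0.029 with library totals, 0.10 on log2(TPM + 1), 0.10 on log2(TPM + 0.1) and 0.027 without WT replicate 2, moved to -0.93 with the endothelial sums, and lay between -0.18 and 0.027 over the libraries left out; the median of all genes was 0.13 and 0.17 on those TPM scales. The Dll4 to Jag1 difference lay between -0.059 and 0.56 on the log2 scale. The causes were not tested.

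An alternative chosen after seeing the data took endothelial sums as library sizes and left out each library: it called 0 to 1 members (Notch2 without WT replicate 2 or 3), 0 to 39 pathway genes (7 without WT replicate 2 and 39 without WT replicate 3, where 7.07% and 41.2% of all genes were called) and 0 to 2 vascular genes, at a median of all genes down to -1.03. In it Dll4 was -0.00064 without TET2KO replicate 2 and Jag2 -0.0065 without TET2KO replicate 1. The replicate numbers are shared by 2 pairs only; deviations of same-numbered libraries correlated at 0.22 and 0.49 across genes, which does not establish pairing. The replicate block called 0 members, with 6 at an unadjusted p under 0.05, and 0 genes in all, with 2982 at an unadjusted p under 0.05 against 1098 without the block. Depth limits Hey2, Heyl, Hes2 and Hes5, which had few counts.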
